A study of Homo sapiens with 3 samples.

Results

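The 31 genes described here belong to the p53 pathway: the family member TP63, 4 genes that control p53 or its family (MDM2, MDM4, UBE3A and PPM1D) and 26 known p53 target genes. They were taken by symbol from a list chosen with earlier results of these data known. All 31 are among the 23277 gene symbols of the data. CaSki cells, an established epidermoid cervical carcinoma line with integrated human papillomavirus, were sequenced as total RNA in 3 groups of 1 library each. The first group carried the empty retroviral vector pMSCV and was given an siRNA against GFP (siGFP) as control. The second carried FLAG-tagged NANOG in pMSCV with the same siGFP, and the third carried FLAG-tagged NANOG with an siRNA against HDAC1 (siHDAC1). The series asked which genes the NANOG-HDAC1 axis regulates. Each group was 1 library of 1 cell line, NANOG was supplied by a vector, and empty vector cells with siHDAC1 were not analysed here. With 1 library a group no difference has a replicate check, so no p-value, standard error or interval is given. "Higher" and "lower" below compare libraries.

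p53 is a transcription factor that is stabilised after DNA damage and other stress, and binds an element of paired decamers in its target genes. MDM2 is both its target and the ubiquitin ligase that limits it, which closes a feedback loop, and MDM4 is the MDM2 relative that mainly blocks its activity. In cells with high-risk papillomavirus the viral E6 protein recruits the cellular ubiquitin ligase UBE3A, also called E6AP, to p53 and has it degraded, so that p53 protein is kept low although its gene is often intact. HDAC1 is a histone deacetylase that can also remove acetyl groups from p53. RNA levels, as measured here, do not report on p53 protein.

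The p53 element was searched in RefSeq promoter windows of build GRCh38.p14, from 250 bases before to 50 after each annotated start. Windows were present for 24 of the 31 genes, and the p53 response element was taken as 2 decamers of 10 bases with a spacer of at most 1 base, the core C and G of each decamer kept and up to 2 other letters off the consensus. The consensus is its own reverse complement, so both strands were covered. Such a match was found in 4 of the 24 genes (16.7%), MDM2, FAS, DDB2 and AEN, against 0.674% of the 27305 genes with a window. By window it was found in 5 of 39 (12.8%), 2 of them for MDM2, against 187 of all 35116 (0.533%). In the further list of p53 targets described below, it was found in 2 of 69 windows (2.9%). Most of these genes were listed as known p53 targets, and the search was chosen with earlier results known. The shares thus describe the lists and are no test. The matches are printed to show the element in these genes, whose values are given next. Capitals mark the match, and each sequence is read 5′ to 3′ on the plus strand, the strand of each gene. The differences of log2(FPKM + 1) between NANOG and empty vector cells were 0.24, 0.73, -0.05 and 0.26 for MDM2, FAS, DDB2 and AEN. Differences of at least the size of those of MDM2 and AEN were seen in 41.5% and 37.5% of all genes, and of at least that of FAS in 5.10%.
MDM2, chr12:68808893-68808972: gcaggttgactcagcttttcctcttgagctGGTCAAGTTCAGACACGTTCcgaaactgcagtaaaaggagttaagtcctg
FAS, chr10:88991305-88991332: tcctGGACAAGCCCTGACAAGCCAagcc
DDB2, chr11:47214975-47214999: gtttGAACAAGCCCTGGGCATGTTT
AEN, chr15:88621302-88621329: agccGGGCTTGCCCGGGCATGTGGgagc

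The DDB2 element had 0 letters off the consensus with a spacer of 1 base, and each of the other elements had 2 letters off and no spacer. In GENCODE release 29, the MDM2 match lay in an intron of 4 of 19 coding transcripts and in no exon, and the FAS match in an intron of 4 of 4 coding transcripts, though FAS transcripts of other types have exons there. The DDB2 match lay in an exon of 1 of 6 coding transcripts, and the AEN match in an exon of 1 of 2. A single decamer with 0 letters off was found in 7 of the 24 genes (29.2%) against 8.06% of the 27305 genes with a window: in FAS, DDB2, AEN, FDXR, PLK2, SESN1 and EI24. In the further list of p53 targets, 7 of 44 genes with a window (15.9%) held one. These shares too describe lists of known targets and are no test. A match is a description of sequence, and binding was not measured.

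Values were deposited as FPKM, fragments scaled to transcript length and to mapped fragments, and depth in reads is unknown. They summed to 600749 to 681947 FPKM per library. Small RNA symbols held 21.2%, 23.1% and 16% of the sum in the empty vector, NANOG siGFP and NANOG siHDAC1 libraries. NANOG stood at 0.0357, 298 and 325 FPKM in the empty vector, NANOG siGFP and NANOG siHDAC1 libraries, as labelled. HDAC1 stood at 19.02, 108 and 12.8 FPKM, so the siHDAC1 library was lowest, but the NANOG siGFP library stood far above the empty vector library. All 5 epithelial markers were expressed, with summed levels of 2771 to 3062 FPKM. Fibroblast markers summed to 2.73 to 4.75 FPKM with 1 of 5 at 1 FPKM or more (COL1A1), and the 4 leukocyte and 3 endothelial markers summed to less than 0.5 FPKM in each library. Differences are of log2(FPKM + 1), a scale that shrinks the change of low genes, over the 11409 genes whose mean was 1 FPKM or more. Of the 31 p53 pathway genes 29 passed this filter. A difference was counted from 1.5-fold (0.585 on this scale) and from 2-fold.

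The 31 genes covered a wide range of levels. SFN, which encodes the epithelial cell cycle inhibitor 14-3-3 sigma, was the most abundant, at 985, 809.6 and 917 FPKM in the empty vector, NANOG siGFP and NANOG siHDAC1 libraries, above 99.3% of the genes kept. GADD45A, a growth arrest gene, and the polo-like kinase gene PLK2 followed with means of 277 and 207 FPKM. At the other end, 2 genes stayed below the filter. GDF15, which encodes a secreted stress cytokine and is a strong p53 target in many cell types, was at 0.365, 0.456 and 0.358 FPKM in those libraries. The decoy receptor gene TNFRSF10D was at 0.0720, 0.0606 and 0.0808 FPKM, and no fold is read from either gene. Most members kept their level across the 3 libraries: in 19 of 29 the highest library was less than 1.25 times the lowest, against 55.3% of all genes kept. The widest ratios were those of TP53I11 (2.34), FAS (1.72), TP63 (1.64) and TP53I3 (1.61).

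**Figure D1:**
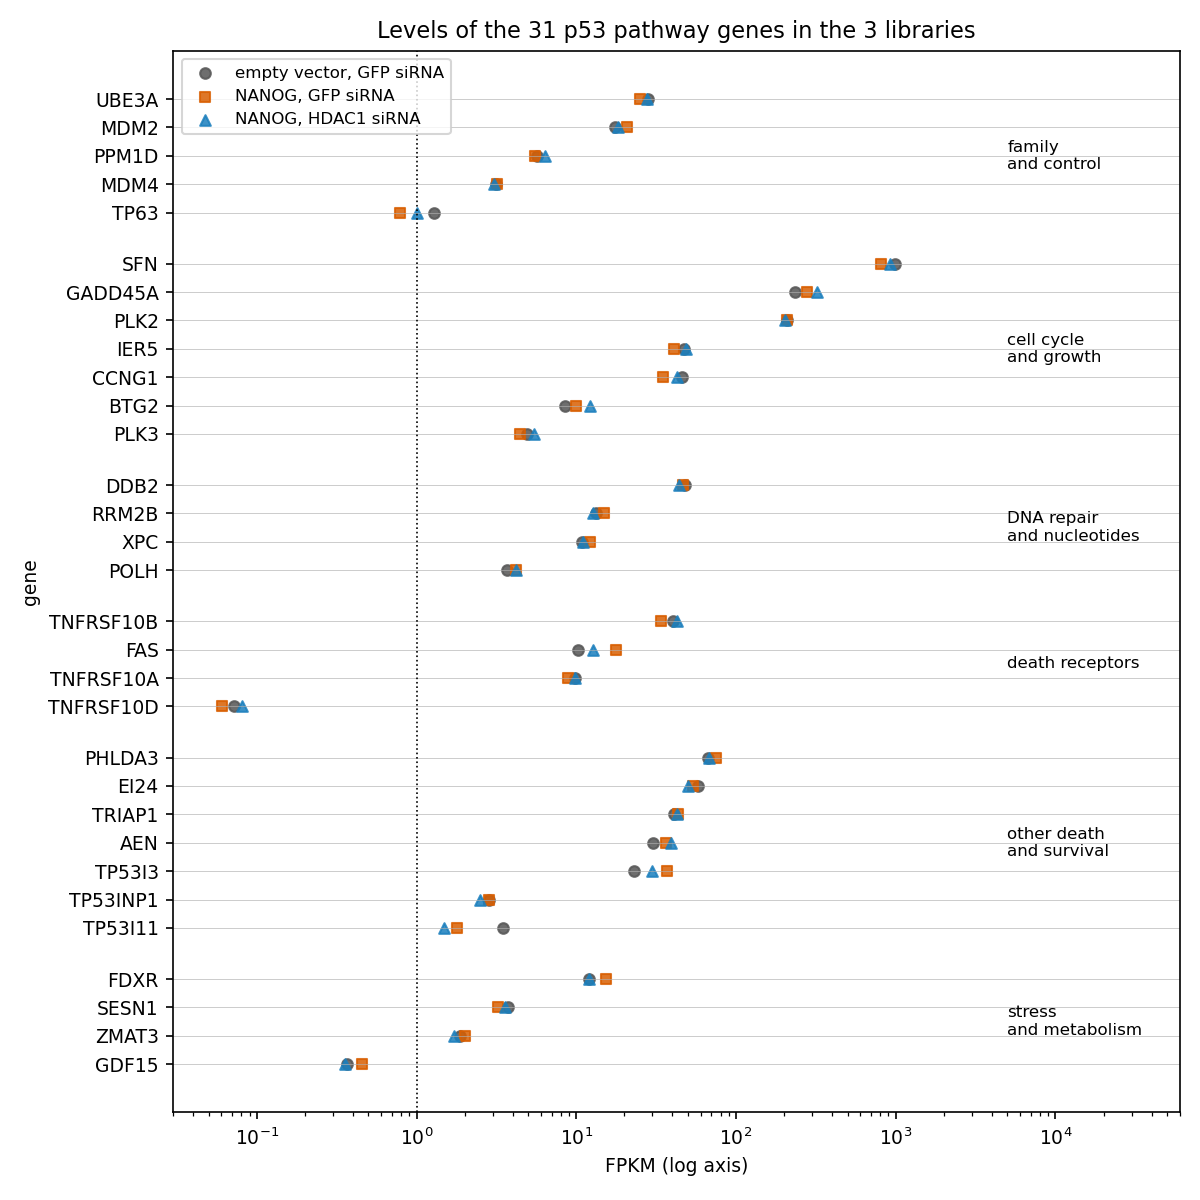
FPKM (log axis) of the 31 p53 pathway genes, grouped by role, with 1 point per library (circle, empty vector siGFP; square, NANOG siGFP; triangle, NANOG siHDAC1); the dotted line is 1 FPKM. The 3 points of most genes nearly coincide, while those of FAS, TP53I3, TP53I11 and TP63 lie apart.

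The first comparison set NANOG cells against empty vector cells, both with siGFP. The death receptor gene FAS and TP53I3, which encodes a quinone oxidoreductase linked to oxidative stress, were higher with NANOG, and TP53I11 was lower. The other 26 genes kept lay between -0.38 (CCNG1) and 0.33 (FDXR). At 2-fold 0 of 29 genes were counted, where 1.89% of all genes were. At 1.5-fold 3 of 29 were counted, 2 higher and 1 lower, where 8.76% of all genes were (3.49% higher and 5.27% lower), so the share is near that of all genes. The genes split evenly, 15 above 0 and 14 below (49.2% of all genes were above 0), and their median of 0.00 lay beside -0.01 for all genes.

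The second comparison set siHDAC1 against siGFP in NANOG cells. None of the p53 pathway genes kept reached 1.5-fold (0 of 29), where 2.13% of all genes did, and none reached 2-fold, where 0.298% did. The range ran from -0.44 for FAS to 0.34 for the death receptor gene TNFRSF10B. The median was -0.01 beside 0.01 for all genes, with 13 above 0 and 16 below, where 53.4% of all genes were above 0. This comparison shares the NANOG siGFP library with the first, so their values are given side by side.

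The third comparison set NANOG cells with siHDAC1 against empty vector cells with siGFP, which differ in both respects. Only TP53I11 reached 1.5-fold (1 of 29, lower), where 5.24% of all genes did and 3.46% were lower, and 0 of 29 reached 2-fold, where 1.19% did. GADD45A and the antiproliferative gene BTG2, both at 0.46, were the highest, followed by AEN at 0.37 and TP53I3 at 0.35. The median was -0.01 beside 0.00 for all genes, with 14 above 0 and 15 below, where 49.8% of all genes were above 0. With each library scaled to TPM the median over all genes was 0.18 in the second and 0.13 in the third comparison, so small differences change sign there. TPM multiplies each library by a single factor, so the split around the median of all genes can hardly change and is no separate check. It was 13 above and 16 below in the second comparison and 14 above and 15 below in the third.

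**Figure D2:**
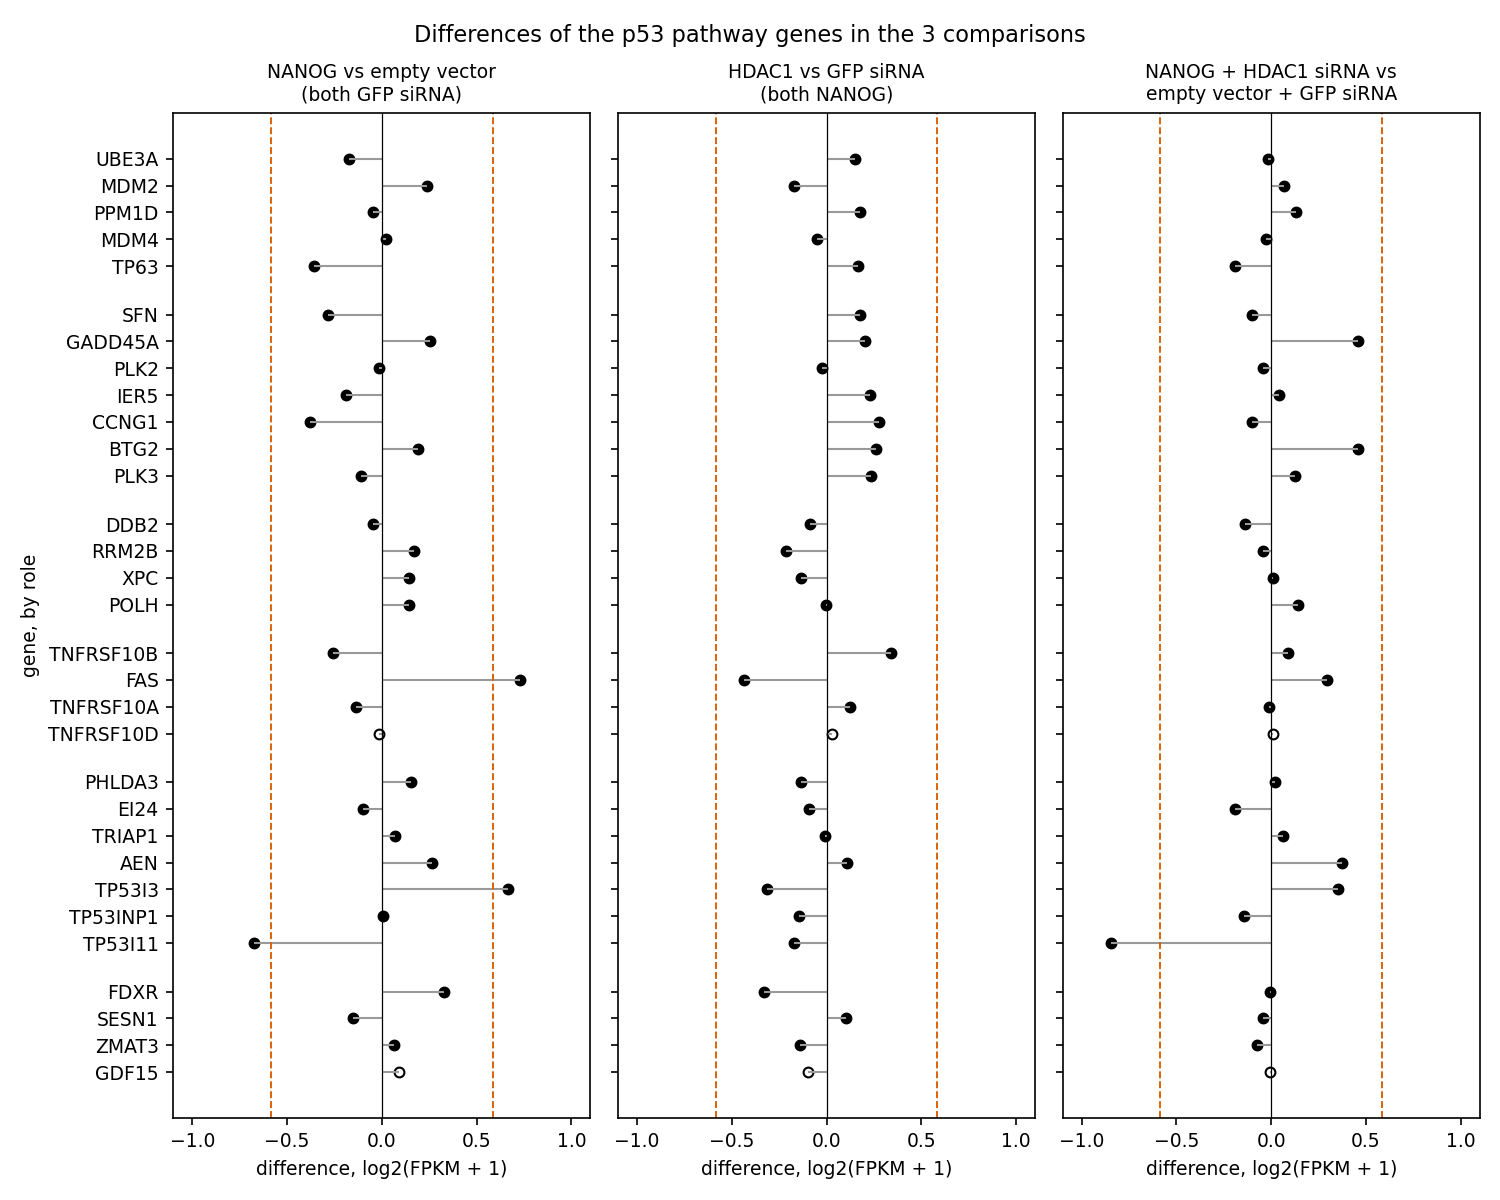
Differences on the log2(FPKM + 1) scale for each gene in the 3 comparisons (1 library against 1; open circles, genes below 1 FPKM on average; dashed lines, 1.5-fold). FAS, TP53I3 and TP53I11 pass the lines in the first comparison, none in the second and TP53I11 in the third.

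**Figure D3:**
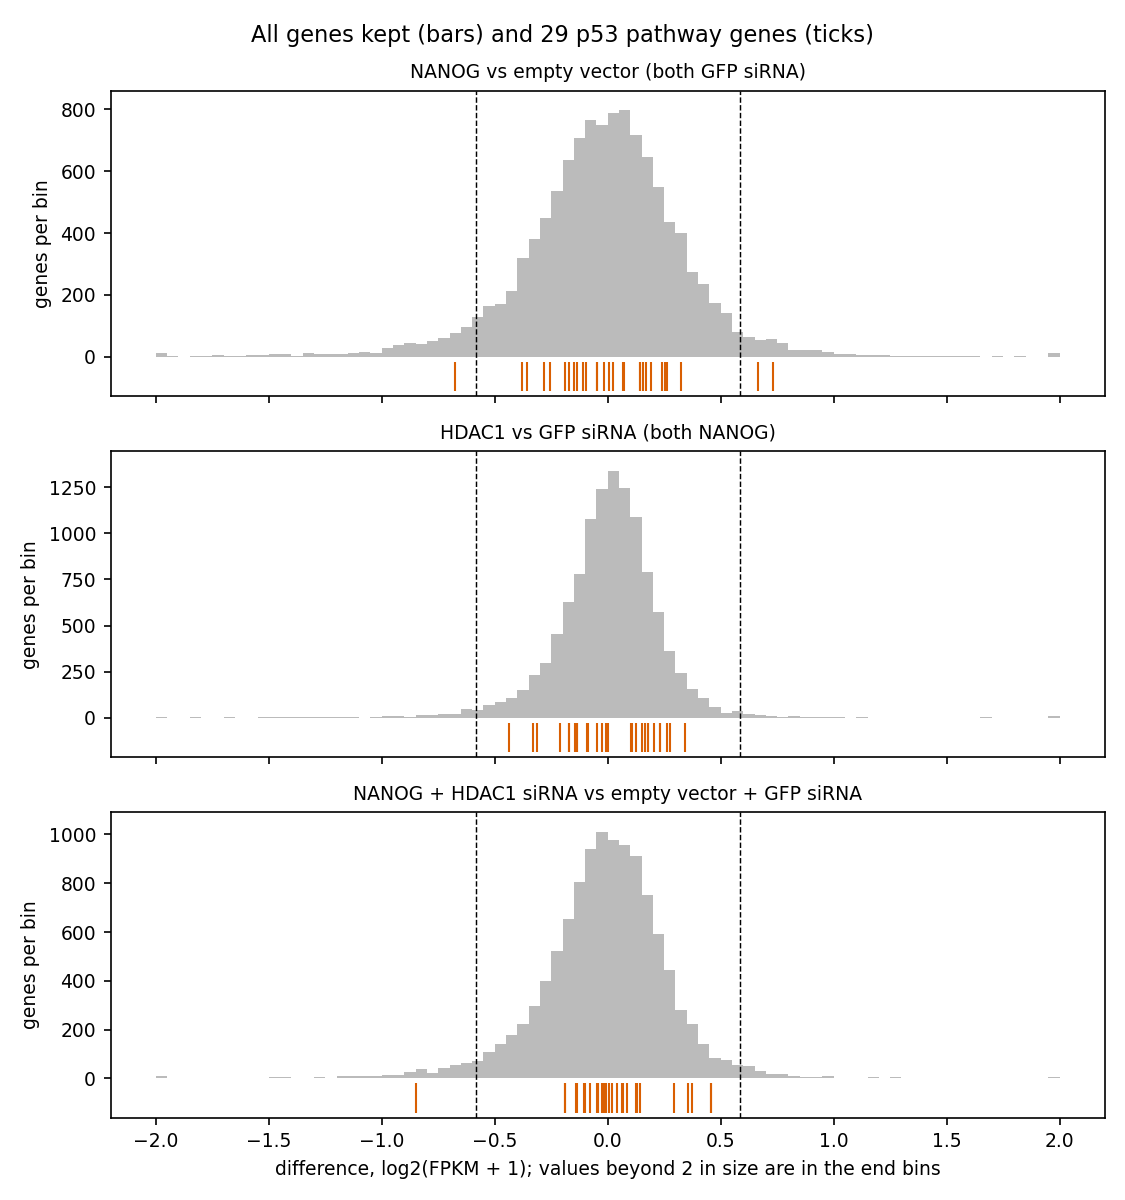
Number of genes per bin of 0.05 on the log2(FPKM + 1) scale for all 11409 genes kept (bars), with the 29 p53 pathway genes as ticks, in the 3 comparisons; dashed lines mark 1.5-fold. The ticks spread over the body of each distribution, with medians of 0.00, -0.01 and -0.01.

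Among the family and control genes, TP63 was low and varied most. TP63 encodes p63, the lineage factor of basal squamous epithelium, and stood at 1.29 FPKM in the empty vector library, 0.785 FPKM in the NANOG siGFP library and 1.004 FPKM in the siHDAC1 library. Empty vector cells were thus highest, and the differences were -0.36, 0.17 and -0.19 in the 3 comparisons in order. With a pseudocount of 0.1 FPKM the first became -0.65, past 1.5-fold, where 12.4% of all genes were. The values are 1 per symbol, so the p63 isoforms with and without the transactivation domain are not separated.

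MDM2 was more abundant than MDM4, at means of 18.9 and 3.12 FPKM. MDM2 was at 17.5, 20.8 and 18.4 FPKM in the empty vector, NANOG siGFP and NANOG siHDAC1 libraries, highest with NANOG siGFP, with a first difference of 0.24. A difference at least that large was seen in 41.5% of all genes. MDM4 was nearly flat, at 3.13, 3.19 and 3.05 FPKM. UBE3A, the ligase that E6 uses, was at 28.3, 25.004 and 27.9 FPKM, lowest with NANOG siGFP, with differences of -0.17 and 0.15 in the first and second comparisons. PPM1D, the phosphatase that switches the p53 response off, was at 5.70, 5.48 and 6.34 FPKM. None of these 4 regulators thus differed by more than 0.24 between any pair of libraries on this scale.

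All 7 genes of cell cycle and growth control stayed within 1.5-fold in each comparison. Past it were 8.76%, 2.13% and 5.24% of all genes in the 3 comparisons in order. In the first comparison 5 of 7 were below 0, where 49.2% of all genes were above 0. The cyclin gene CCNG1 was lowest at -0.38 (45.7, 34.9 and 42.5 FPKM in the 3 libraries), with SFN at -0.28. In the second, which shares the NANOG siGFP library, 6 of 7 were above 0 and also above the median of all genes. There 53.4% of all genes were above 0. The 6 ran from 0.18 for SFN to 0.28 for CCNG1, sizes reached by 32.9% and 15.6% of all genes. PLK2 was the exception and stayed level, at 209.9, 207 and 204 FPKM, giving -0.03 (0.16 under TPM, below the median of all genes).

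GADD45A and BTG2 were lowest in empty vector cells and highest with siHDAC1. GADD45A was at 233, 278 and 321 FPKM in the empty vector, NANOG siGFP and NANOG siHDAC1 libraries. BTG2, which encodes an antiproliferative regulator of transcription and mRNA decay, was at 8.56, 9.92 and 12.1 FPKM. In the third comparison both reached 0.46, a size reached by 9.31% of all genes for GADD45A and 9.38% for BTG2. Under TPM both passed 1.5-fold, at 0.595 for GADD45A and 0.601 for BTG2. The median of all genes was 0.13 there, and 6.28% of all genes passed 1.5-fold. With libraries scaled to the same upper quartile, both genes were at 0.47. The related kinase gene PLK3 stood far below PLK2, at 4.89, 4.46 and 5.42 FPKM, and the immediate early gene IER5 at 46.97, 41.02 and 48.3 FPKM. Both were lowest with NANOG siGFP.

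The 4 genes of DNA repair and nucleotide supply differed little. DDB2, the damage sensor of nucleotide excision repair, whose window holds the element with 0 letters off, was at 48.2, 46.6 and 43.8 FPKM and had the smallest first difference of the 4, at -0.05. XPC, its partner in damage recognition, was at 10.9, 12.1 and 10.97 FPKM. RRM2B, a subunit of ribonucleotide reductase, was at 13.2, 14.96 and 12.8 FPKM, and the translesion polymerase gene POLH at 3.70, 4.20 and 4.19 FPKM. With siHDAC1 all 4 lay below the median of all genes, from -0.21 for RRM2B to -0.00 for POLH. A difference at least the size of that of RRM2B was seen in 25.7% of all genes. The signs of DDB2, XPC and POLH turned positive under TPM. The 4 lay below the median of all genes there too, which a scaling of whole libraries can hardly change.

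Among the death receptors, FAS differed most. FAS, the receptor for FAS ligand, was at 10.3, 17.7 and 12.8 FPKM in the empty vector, NANOG siGFP and NANOG siHDAC1 libraries. The NANOG siGFP library was highest, at 1.72 times the empty vector value, and the difference of 0.73 was reached in size by 5.10% of all genes. With siHDAC1 FAS was lower (-0.44, a size reached by 5.16% of all genes) and stayed above the empty vector value (0.29 in the third comparison). TNFRSF10B, which encodes TRAIL receptor 2, was at 40.4, 33.7 and 43.02 FPKM, so that the NANOG siGFP library was the lowest. Its differences were -0.26 and 0.34, the latter the highest of the 29 genes in the second comparison. TNFRSF10A, which encodes TRAIL receptor 1, had the same order at smaller size, with 9.88, 8.88 and 9.78 FPKM and differences of -0.14 and 0.13. In the third comparison TNFRSF10B was at 0.09 and TNFRSF10A at -0.01. The decoy TNFRSF10D was near 0, as given above.

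Of the other genes of cell death and survival, TP53I3 and TP53I11 differed most. TP53I3 was at 23.1, 37.2 and 29.8 FPKM in the 3 libraries, which gave 0.67, -0.31 and 0.35 in the 3 comparisons. It was thus highest with NANOG siGFP, as FAS was, and a first difference of its size was reached by 6.64% of all genes. TP53I11, which encodes a membrane protein first found as a p53-induced gene, was at 3.46, 1.79 and 1.48 FPKM. Both NANOG libraries were below the empty vector library, at 0.518 and 0.427 times its value. The differences were -0.68 and -0.85, the latter reached by 1.90% of all genes. It is a low gene, and with a pseudocount of 0.1 FPKM the values were -0.91 and -1.17.

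AEN, a p53-induced nuclease gene, was at 30.2, 36.4 and 39.3 FPKM, highest with siHDAC1. The other 4 differed by less than 0.2 in each comparison. PHLDA3, which encodes an inhibitor of AKT, was at 66.9, 74.6 and 67.7 FPKM, and TP53INP1, a gene of autophagy and apoptosis, at 2.85, 2.86 and 2.49 FPKM. EI24, which encodes a membrane protein of the endoplasmic reticulum, was at 57.7, 53.8 and 50.4 FPKM, lowest with siHDAC1. TRIAP1, a survival gene of the p53 response, was nearly level at 41.0, 43.1 and 42.9 FPKM.

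In the group of stress and metabolism, FDXR had the widest spread. FDXR encodes ferredoxin reductase of mitochondrial electron transfer and stood at 12.1, 15.4 and 12.03 FPKM in the 3 libraries. Only the NANOG siGFP library was apart, and the differences were 0.33, -0.33 and -0.01. SESN1, which encodes a sestrin that restrains mTORC1, was at 3.73, 3.26 and 3.58 FPKM, and ZMAT3, which encodes an RNA-binding regulator of splicing, at 1.88, 2.01 and 1.73 FPKM. The largest difference of either was -0.15, for SESN1 in the first comparison.

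The library kit was a stranded one, but the strand setting of the counting is not given in the sources used here. Exons of 11 of the 31 genes overlap a gene on the opposite strand in GENCODE release 29. The share of all genes with such an overlap was not counted, so 11 of 31 cannot be called many or few. All 3 genes past 1.5-fold in the first comparison are among the 11. For FAS the partner is ACTA2, at 5.61, 6.90 and 5.97 FPKM in the 3 libraries, lower than FAS in each and with a first difference of 0.26. For TP53I11 it is TSPAN18, at 0.0170 FPKM in empty vector cells and listed at 0 in both NANOG libraries. For TP53I3 it is FAM228B, for which no value was found under that symbol. Other partners stood far above their gene: GTPBP2 over POLH, at 55.97, 38.95 and 45.6 FPKM, and LSM3 over XPC, at 64.3, 66.5 and 60.7 FPKM. The part of any partner in these values was not tested.

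The rest of the pathway was described with 2 further lists, 56 p53 targets and 35 regulators and cofactors, of which 51 and 32 genes were kept. Of the further targets, 7 of 51 were past 1.5-fold in the first comparison (4 higher and 3 lower), where 8.76% of all genes were, and the median was 0.02. KITLG, which encodes KIT ligand, was highest at 0.94 (4.43, 9.40 and 7.97 FPKM in the 3 libraries), followed by the hydrolase gene CMBL at 0.81, the small GTPase gene RAP2B at 0.70 and NINJ1, whose product ruptures the plasma membrane in cell death, at 0.69. The calcium channel gene ORAI3 was lowest at -0.70 (7.001, 3.92 and 3.59 FPKM), with SESN2 at -0.67 and TNFAIP8, named after its value was seen, at -0.64.

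With siHDAC1 the further targets had 15 of 51 genes above 0 and 36 below as deposited, where 53.4% of all genes were above 0, but 38 above and 13 below under TPM. Their median was -0.06 beside 0.01 for all genes. Set against the median of all genes, 36 of 51 lay below as deposited and 38 of 51 under TPM, a split that TPM can hardly change. Past 1.5-fold were 2 genes, where 2.13% of all genes were. Under TPM 1 was higher and 0 lower, where 3.38% of all genes were past 1.5-fold. The sestrin gene SESN2 was higher at 0.71 (35.3, 21.8 and 36.3 FPKM) and RAP2B lower at -0.69 (12.6, 21.2 and 12.8 FPKM). In both, the siHDAC1 library was near the empty vector value, and the NANOG siGFP library, shared by the first and second comparisons, was apart. CMBL followed at -0.56 and BAX, the pore-forming death effector, at -0.36 (145.7, 174 and 135 FPKM). In the third comparison ORAI3 (-0.80) and KITLG (0.72) were past 1.5-fold, 2 of 51 where 5.24% of all genes were. They were followed by NINJ1 at 0.55 and the cytokine gene CSF1 at 0.53. Under TPM 3 were higher and 1 lower, where 6.28% of all genes were past 1.5-fold.

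Of the regulators and cofactors, 12 of 32 were above 0 in the first comparison, where 49.2% of all genes were, with a median of -0.09. In the second 20 of 32 were above 0, where 53.4% of all genes were, with a median of 0.07, and under TPM 28 of 32 were above 0 and 20 above the median of all genes. Past 1.5-fold were 2 genes in the first comparison, where 8.76% of all genes were, the nucleolar chaperone gene NPM1 at 0.73 (591, 979 and 698 FPKM) and TP53BP2, which encodes the p53 cofactor ASPP2, at -0.62 (20.8, 13.2 and 18.2 FPKM). The acetyltransferase gene EP300 was at -0.54 and PPP1R13L, which encodes the inhibitory relative iASPP, at -0.53. With siHDAC1 NPM1 was at -0.49, the kinase gene HIPK2 at 0.45, TP53BP2 at 0.44 and the ligase gene HUWE1 at -0.29. There 0 of 32 reached 1.5-fold as deposited, where 2.13% of all genes did. Under TPM 2 of 32 did, both higher, where 3.38% of all genes did. In the third comparison 0 of 32 reached 1.5-fold, where 5.24% of all genes did. The largest were HUWE1 (-0.34), PPP1R13L (-0.30), EP300 (-0.28) and CREBBP (-0.26). TP73, the third family member, was listed at 0 in empty vector cells and at 0.0074 FPKM in both NANOG libraries.

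**Figure D4:**
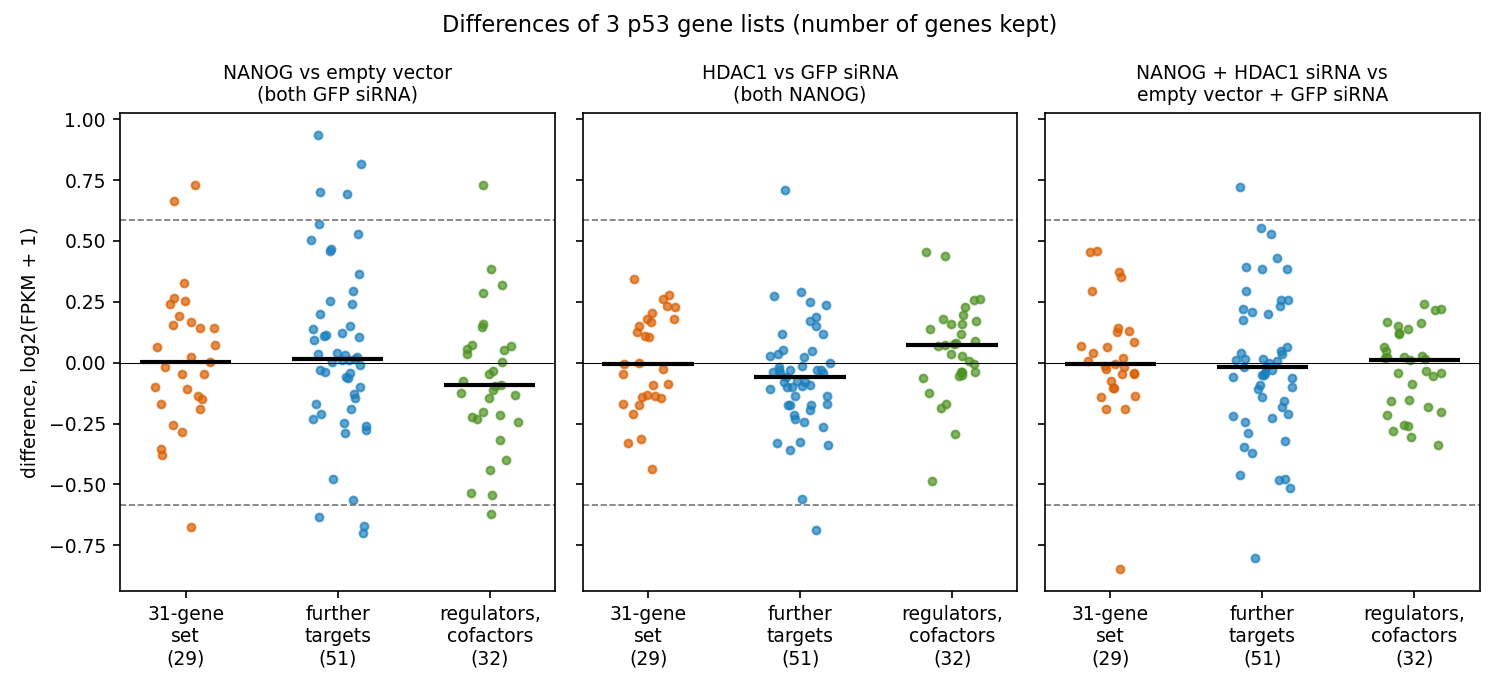
Differences on the log2(FPKM + 1) scale of the genes kept in 3 p53 lists (the 31-gene set, further targets, regulators and cofactors; points spread sideways for clarity), with the list median as a black bar and 1.5-fold as dashed lines. The medians stay between -0.09 and 0.07, and few genes of any list pass the lines.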

How the data were processed

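Total RNA libraries of 3 groups of CaSki cells, 1 each, were compared; groups came from the sample titles. Per the labels' protocols, a TruSeq stranded kit for total RNA was used on Trizol extracts. TopHat2, Cufflinks and hg19 were used, per the submitters' processing notes. Their versions, the annotation and the strand setting were not given in the sources used here. FPKM values, 1 per symbol, are what the authors deposited.

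Small RNA symbols (1623) were left out, and the 11409 genes whose mean reached 1 FPKM were kept. Differences of log2(FPKM + 1) were counted from 1.5-fold and 2-fold; with 1 library a group there was no test. Gene names, p53 elements and exon overlaps came from RefSeq (GRCh38.p14) and GENCODE release 29. The values are from hg19, so coordinates are given only for the printed RefSeq sequences. All 31 members are described; from each other list, the 4 genes with the largest difference per comparison are named. The members, lists, roles and the promoter search were chosen with earlier results of these data known. The count at 2-fold was tested on simulated data, with 3-fold changes planted in genes of 5 FPKM or more. That test did not cover the 1.5-fold count, changes in low genes, or the promoter and overlap searches. Python 3.11.15, numpy 2.4.6, pandas 2.3.3 and matplotlib 3.10.9 were used.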

Additional observations from a re-analysis of the deposited data

How the results depend on the processing

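Alternatives were a pseudocount of 0.1 or 0.5 FPKM, filters at 5 FPKM and none, 3 rescalings, small RNA symbols kept, a 3-fold threshold and the mean in place of the median. In the first comparison the count past 1.5-fold was 3 and that past 2-fold 0 as reported. With a filter at 5 FPKM the first count was 2 of the 21 genes left, without TP53I11, where 9.01% of all genes were counted. With a pseudocount of 0.1 FPKM it was 4, with TP63, where 12.4% of all genes were. In NANOG cells with HDAC1 siRNA against empty vector cells, the count past 1.5-fold was 1 as reported, where 5.24% of all genes were. It was 0 with a filter at 5 FPKM (4.94% of all genes), which leaves TP53I11 out. Under TPM it was 3 (6.28% of all genes), which adds GADD45A and BTG2. The count past 2-fold there was 0 as reported and 1 with pseudocounts of 0.1 and 0.5 FPKM, TP53I11 in each case. TPM moved the median of the 29 genes to 0.16 for HDAC1 siRNA against GFP siRNA and to 0.12 for the comparison with empty vector, beside 0.18 and 0.13 for all genes. No difference past 1.5-fold changed sign under any alternative run, but this could not have come out otherwise and is no check. A pseudocount or a filter cannot change the sign of a difference. The rescalings multiply each library by a single factor, and these factors differed too little between libraries to reverse a 1.5-fold difference. No paired analysis was possible because each group has 1 library. Depth in reads is unknown, so the precision of low genes such as TP63 and TP53I11 could not be given.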
